A study of Mus musculus with 12 samples.

Results

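The genes that set the pace of the G1 phase of the cell cycle were followed in mouse follicular (FO) B cells: the cyclins Ccnd2, Ccnd3, Ccne1 and Ccne2, the kinases Cdk4, Cdk6 and Cdk2, the kinase inhibitors Cdkn1b and Cdkn2c, and Rb1, the protein that the kinases phosphorylate. These 10 genes were chosen by symbol, for their known role, out of the 22561 genes of the count table. Earlier results of these data were known when they were chosen. All 10 were in the table, and 8 of them were among the 9431 genes with enough counts to be tested. FO B cells had been sorted from the spleen of C57BL6 mice that were 10 weeks old, and the 12 samples formed 4 groups of 3. The groups were unstimulated cells, cells given IFNα at 0.1 μg/mL, cells given CpG at 1 μg/mL, and cells given both, each stimulation lasting 12 h. CpG (ODN1826) is a synthetic DNA that is sensed by the receptor TLR9, and IFNα belongs to the type I interferons. Whether unstimulated cells spent those 12 h in culture is not stated in the study's methods, and some supplementary legends give CpG at 0.1 μg/mL for the combination where others give 1 μg/mL.

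RNA was measured by bulk RNA barcoding (BRB) sequencing, which tags the 3′ end of each transcript with the barcode of its sample and with a unique molecular identifier (UMI), and a count therefore stands for a molecule, whatever the length of the gene. Totals per sample ran from 922450 to 1103064 counts for unstimulated cells, 1067324 to 1689570 for IFNα, 1393018 to 1985810 for CpG and 1884673 to 2923865 for the combination, so depth tended to be higher with CpG. The labels do not say that the 3 samples of a group came from separate mice, so the p-values measure the spread between these samples, which may be technical. The label of B cells was checked with 6 defining markers (Cd79a, Cd79b, Ms4a1, Pax5, Ighm and Ighd), all of which were tested. Their summed level was between 15100 and 17500 CPM (counts scaled to a common library size) in the groups without CpG and between 5540 and 6430 in the groups with it. The 4 T cell markers of the table summed to 3.64 CPM at most, with Cd3g and Cd8a at 0 in every sample. The 5 myeloid markers of the table summed to between 12.7 and 32.1 CPM in unstimulated cells and to 7.19 at most elsewhere, and the 5 erythroid markers to between 57.4 and 345 in unstimulated cells, 15.3 and 335 under IFNα, 4.99 and 59.6 under CpG, and 5.65 and 72 under the combination. Follicular markers (Fcer2a, Cr2 and Ighd) summed to between 4410 and 5060 CPM in unstimulated cells, 3060 and 3620 under IFNα, 931 and 1110 under CpG, and 847 and 972 under the combination, and 5 marginal zone markers to 454 to 540, 548 to 594, 522 to 566 and 273 to 287 in turn. The sum of Siglech, Bst2 and Ccr9, markers of plasmacytoid dendritic cells, was 66.4 to 81.2 in unstimulated cells, 905 to 1250 under IFNα, 96.2 to 147 under CpG and 1020 to 1170 under the combination, with Siglech at 0 in every sample. Bst2 is also induced by interferon in many cell types. The 5 plasma cell markers summed to between 181 and 380 CPM. The part of these markers in the results below was not tested.

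A resting B cell sits outside the cell cycle with abundant p27, the product of Cdkn1b, and hypophosphorylated RB, the product of Rb1, which holds the E2F transcription factors in check. Mitogens raise D cyclins, which bind CDK4 and CDK6 and start the phosphorylation of RB; cyclin E with CDK2 completes it, E2F is released, and the genes of DNA replication are transcribed. Mature B cells use cyclins D2 and D3 rather than D1, and inhibitors of the Cip/Kip family (Cdkn1a, Cdkn1b) and the Ink4 family (Cdkn2c, Cdkn2d) restrain the kinases.

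Levels are given below as TMM-normalized CPM in replicates 1, 2 and 3 in turn. A gene "rose" or "fell" where the adjusted p of edgeR's quasi-likelihood test, over all 9431 genes, was under 0.1. CpG against unstimulated cells moved 5 of the 8 genes tested: Ccnd2, Cdk4 and Cdk6 rose, and Cdkn1b and Rb1 fell. In that comparison 36.5% of all genes tested were higher and 38.4% lower, so a share of this size was common among all genes. IFNα on top of CpG raised 1 gene, Ccnd2, and lowered 3, Cdk6, Cdkn1b and Rb1, against 6.54% and 8.83% of all genes. IFNα alone raised Cdkn1b and lowered Cdk4 and Cdk6, against 12.4% and 11.9% of all genes. The effect of IFNα with CpG differed from its effect without CpG in Ccnd2, where it was higher, and in Cdkn1b, where it was lower, against 5.84% and 7.58% of all genes. With a fold change over 2 required as well, IFNα alone called 0 of the 8 (4.56% and 4.07% of all genes), CpG called Ccnd2, Cdk4, Cdk6 and Cdkn1b (20.1% and 25.5%), IFNα on top of CpG called Ccnd2 (2.95% and 2.01%), and the difference of effects called Ccnd2 (3.09% and 3.17%). Under scaling by library size alone the split of all genes called moved from 1173 higher and 1122 lower to 924 and 1483 for IFNα alone, and from 551 and 715 to 658 and 530 for the difference of effects. Without mitochondrial and rRNA genes it moved from 617 and 833 to 714 and 690 for CpG + IFNα against CpG, and to 667 and 545 for the difference of effects. In bulk RNA, fewer cells that express a gene and less RNA of it per cell cannot be told apart. CPM is also relative to the RNA counted in each sample, so changes in total RNA per cell were not measured.

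**Figure D1:**
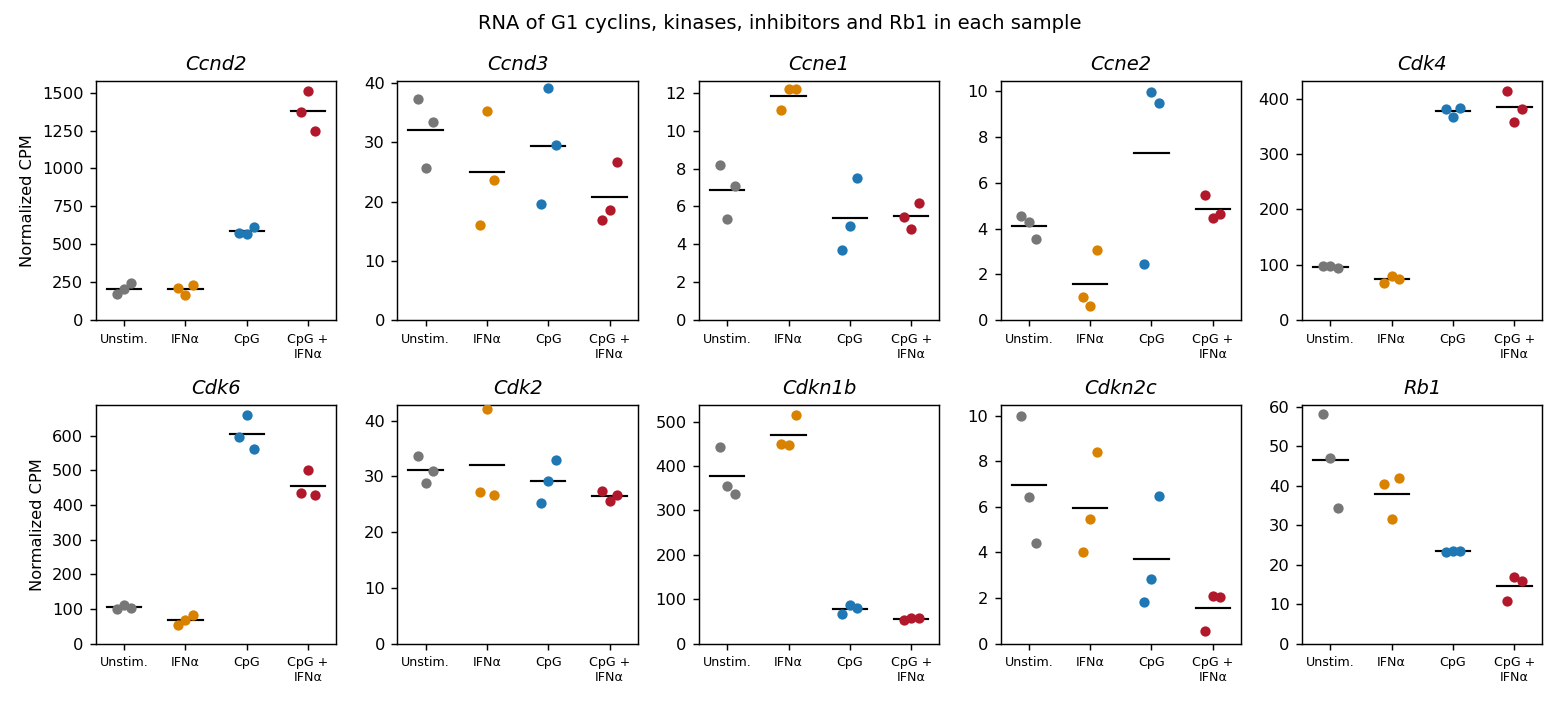
Normalized CPM (linear axis from 0, a separate scale for each gene) of the 10 genes in the 4 groups; each point is a sample and each bar the mean of 3. Ccnd2 is highest with CpG + IFNα in all 3 samples, Cdk4 and Cdk6 are high in both groups given CpG, and Cdkn1b is low in both.

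Ccnd2 encodes cyclin D2, which mitogens induce in mature B cells, and lies at chr6:127125162-127152193 on the minus strand (GRCm38). It stood at 172, 204 and 247 CPM in unstimulated cells and at 209, 167 and 232 with IFNα. It stood at 575, 568 and 612 with CpG and at 1370, 1510 and 1250 with CpG + IFNα. The groups without CpG overlapped, and each group with CpG lay apart from all others. By edgeR's quasi-likelihood test the rise over unstimulated cells was 1.49 ± 0.13 (log2 fold change ± SE, adjusted p = 8.21e-12) with CpG and 2.73 ± 0.13 (2.05e-18) with CpG + IFNα. Adding IFNα to CpG raised it by 1.24 ± 0.12 on the log2 scale (2.36-fold, 95% interval 0.99 to 1.48, adjusted p = 8.38e-10). Without CpG, no such rise with IFNα was seen. The log2 fold change was then -0.05 ± 0.14 (interval -0.33 to 0.24, adjusted p = 0.868). The difference between the effects of IFNα was 1.28 ± 0.18 (interval 0.91 to 1.65, adjusted p = 9.01e-06). The order of levels was thus CpG + IFNα, then CpG, then the unstimulated and IFNα groups, which did not differ beyond their spread.

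Ccnd3 encodes cyclin D3 and lies at chr17:47505051-47599691 on the plus strand. Its level was 37.3, 25.7 and 33.5 CPM in unstimulated cells, 16.1, 35.3 and 23.7 with IFNα, 19.6, 39.2 and 29.5 under CpG, and 16.9, 18.6 and 26.7 with CpG + IFNα. All groups overlapped. It fell in CpG + IFNα against unstimulated cells, by 0.65 on the log2 scale (SE 0.26, edgeR adjusted p = 0.023), a call that was lost without unstimulated replicate 1 (adjusted p = 0.119) and with every sample thinned to the lowest total (0.122). Against CpG the difference was -0.50 ± 0.24 (edgeR adjusted p = 0.2), with an interval between -0.98 and -0.01. This difference was called without CpG replicate 1 (-0.71, adjusted p = 0.0633) or CpG + IFNα replicate 3 (-0.70, 0.0878). Against IFNα alone Ccnd3 was called as lower without IFNα replicate 1 (adjusted p = 0.0745) or CpG + IFNα replicate 3 (0.0872). The last bases of Ccnd3 overlap Bysl on the opposite strand, which had 2155 counts over the 12 samples beside 491 for Ccnd3. How the counting treated strand is not given in the sources used here, so reads of the pair may not have been separated.

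Among counts of the D cyclins, the share of Ccnd2 was 82.2%, 88.8% and 88.1% in unstimulated cells, 92.8%, 82.5% and 90.7% with IFNα, 96.7%, 93.5% and 95.4% under CpG, and 98.8%, 98.8% and 97.9% with CpG + IFNα. Both groups with CpG lay above both groups without it, and CpG + IFNα lay above CpG. The summed level of Ccnd2 and Ccnd3 was 240 ± 37 CPM (SD, n = 3) in unstimulated cells and 1400 ± 125 (n = 3) with CpG + IFNα. Ccnd1, the D cyclin of many other tissues, had too few counts to be tested.

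Ccne1 and Ccne2 encode the E cyclins, which activate CDK2 at the end of G1, and both were scarce. Ccne1 (chr7:38097984-38107534, minus strand) had between 5 and 20 counts per sample. It stood at 8.19, 5.35 and 7.06 CPM in unstimulated cells, 11.1, 12.2 and 12.2 with IFNα, 3.68, 4.99 and 7.49 under CpG, and 5.45, 4.83 and 6.17 with CpG + IFNα. The IFNα group lay above all others without overlap. Against unstimulated cells this difference of 0.77 ± 0.38 on the log2 scale was not called (edgeR adjusted p = 0.162), except with thinned counts (1.03, adjusted p = 0.0965). Ccne1 was lower than with IFNα alone in both groups given CpG, with a log2 difference of -1.09 ± 0.35 for CpG (edgeR adjusted p = 0.00698) and -1.12 ± 0.34 for CpG + IFNα (adjusted p = 0.00382). With CpG it differed from unstimulated cells by -0.32 ± 0.41 (edgeR adjusted p = 0.492). At 12 h no rise of Ccne1 with CpG was thus detectable at this depth, and the interval of that difference ran from -1.17 to 0.52.

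Ccne2 (chr4:11191351-11204779, plus strand) did not pass the filter on low counts. It had 5, 4 and 4 counts in unstimulated cells, 1, 1 and 4 with IFNα, 4, 14 and 19 under CpG, and 10, 13 and 9 with CpG + IFNα. Scaled by depth, these were 4.55, 4.28 and 3.53 CPM, then 1.01, 0.608 and 3.05, then 2.46, 9.98 and 9.49, then 5.45, 4.48 and 4.63. The CpG replicates were spread, with replicate 1 below all unstimulated samples and the other two above all samples of the other groups. In a fit without the filter, Ccne2 was above the IFNα group by 2.26 ± 0.58 on the log2 scale with CpG (edgeR adjusted p = 0.000405) and by 1.72 ± 0.60 with CpG + IFNα (adjusted p = 0.0136). Against unstimulated cells the same fit gave 0.88 ± 0.50 with CpG (edgeR adjusted p = 0.177) and -1.38 ± 0.70 with IFNα (adjusted p = 0.3). Ccne2 overlaps Ints8 on the opposite strand, which had 364 counts beside 88 for Ccne2.

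Among the kinases, Cdk4 and Cdk6 bind D cyclins and Cdk2 binds cyclin E. Cdk4 (chr10:127063534-127067920, plus strand) stood at 97.4, 97.3 and 94.4 CPM in unstimulated cells, 67.6, 79 and 74.8 with IFNα, 381, 367 and 384 under CpG, and 415, 359 and 382 with CpG + IFNα. The groups given CpG overlapped each other and lay far above the rest. By edgeR's quasi-likelihood test Cdk4 rose with CpG by 1.97 ± 0.12 on the log2 scale (3.92-fold, adjusted p = 6.58e-16) and 3.99-fold with CpG + IFNα (adjusted p = 2.85e-16, 95% interval 1.76 to 2.24 on the log2 scale). The 2 groups differed by 0.03 ± 0.10 (edgeR adjusted p = 0.914), and the 95% interval ran from -0.18 to 0.23, so that a further change as large as that of Ccnd2 lay outside it. With IFNα alone Cdk4 fell by 0.37 on the log2 scale (SE 0.14, edgeR adjusted p = 0.053), and the 3 samples lay below the 3 unstimulated ones. This call was lost without any 1 of unstimulated replicates 1 and 2 and IFNα replicates 1 and 3 (adjusted p from 0.12 to 0.17), without the filter on low counts (0.157) and with thinned counts (0.122).

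Cdk6 (chr5:3341485-3531008, plus strand) moved further. It stood at 99.2, 113 and 103 CPM in unstimulated cells, 54.5, 68.1 and 83.2 with IFNα, 597, 659 and 561 under CpG, and 435, 500 and 430 with CpG + IFNα. No 2 groups overlapped. It rose with CpG by 2.53 ± 0.13 on the log2 scale (5.76-fold, edgeR adjusted p = 1.47e-17) and with CpG + IFNα by 2.12 ± 0.13 (adjusted p = 8.58e-16). IFNα lowered it in both settings, with a log2 fold change of -0.60 ± 0.15 without CpG (edgeR adjusted p = 0.00424) and of -0.41 ± 0.11 with CpG (adjusted p = 0.0112). The difference between these effects was 0.19 ± 0.19 (edgeR adjusted p = 0.603, interval -0.19 to 0.57). Cdk6 was thus highest with CpG, whereas Ccnd2 was highest with CpG + IFNα.

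The share of Cdk4 in the summed counts of Cdk4 and Cdk6 was 49.5%, 46.2% and 47.8% in unstimulated cells, 55.4%, 53.7% and 47.3% with IFNα, 38.9%, 35.8% and 40.7% under CpG, and 48.8%, 41.8% and 47.1% with CpG + IFNα. The CpG group lay below the 3 other groups in all samples. The summed level of the pair was 202 ± 7.81 CPM (SD, n = 3) in unstimulated cells, 142 ± 18.4 with IFNα, 984 ± 42.5 under CpG and 840 ± 24.2 with CpG + IFNα.

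Cdk2 (chr10:128697939-128705031, minus strand) was not called in any comparison with all samples. It stood at 33.7, 28.9 and 30.9 CPM in unstimulated cells, 27.2, 42 and 26.7 with IFNα, 25.2, 29.2 and 32.9 under CpG, and 27.3, 25.5 and 26.7 with CpG + IFNα. All its log2 differences lay between -0.31 and 0.07. The interval for CpG against unstimulated cells was -0.51 to 0.33, which does not reach the change of Cdk4 or Cdk6. Without IFNα replicate 3, Cdk2 was called as lower with CpG + IFNα than with IFNα (-0.42, edgeR adjusted p = 0.0785).

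**Figure D2:**
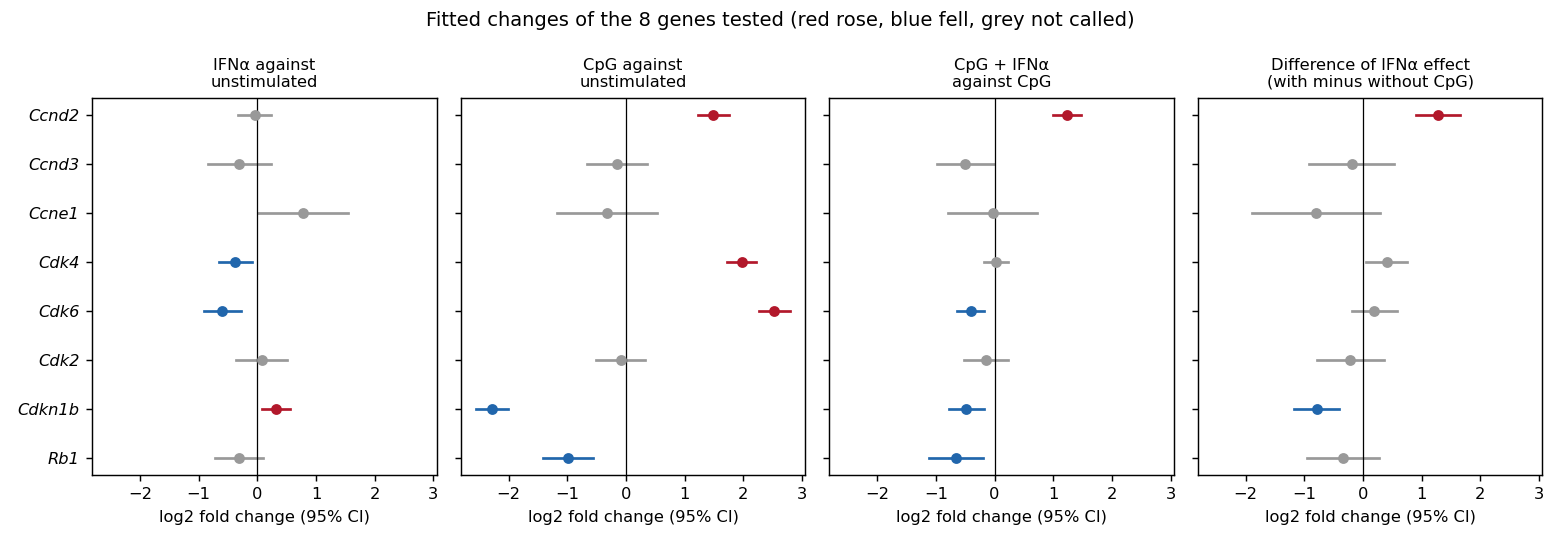
Fitted log2 fold changes (points) with 95% intervals (lines) of the 8 genes tested, in 3 comparisons and for the difference between the effects of IFNα with and without CpG; red rose, blue fell, grey was not called. Ccnd2 is at 1.24 and Cdk4 at 0.03 for CpG + IFNα against CpG, and Ccnd2 (1.28) and Cdkn1b (-0.79) are called in the last panel.

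Cdkn1b encodes p27, a Cip/Kip inhibitor that keeps CDK2 inactive in resting lymphocytes, and lies at chr6:134920401-134925513 on the plus strand. It was at 444, 354 and 337 CPM in unstimulated cells and at 450, 448 and 515 with IFNα. It was at 66.3, 86.2 and 81.4 with CpG and at 53.5, 56.9 and 57 with CpG + IFNα. The groups given CpG lay far below the others and did not overlap each other. By edgeR's quasi-likelihood test Cdkn1b fell by 2.28 on the log2 scale with CpG (SE 0.13, 4.86-fold lower, adjusted p = 2.14e-16) and by 2.76 with CpG + IFNα (SE 0.13, 6.76-fold lower, adjusted p = 1.5e-18). The step from CpG to CpG + IFNα was a fall of 0.48 (log2 change -0.48 ± 0.14, edgeR adjusted p = 0.0253). That call was lost without CpG replicate 2 (adjusted p = 0.12) or CpG replicate 3 (0.116), and with thinned counts (0.138).

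IFNα alone moved Cdkn1b the other way, by 0.31 ± 0.12 on the log2 scale (edgeR adjusted p = 0.0532), and all 3 samples lay above the 3 unstimulated ones. The rise was lost without unstimulated replicate 2 (adjusted p = 0.158), unstimulated replicate 3 (0.334) or IFNα replicate 3 (0.209), under scaling by library size (0.162) and with DESeq2 (0.108). The difference between the effects of IFNα was -0.79 ± 0.18 (edgeR adjusted p = 0.00436, interval -1.17 to -0.42). It was called in all alternatives fitted except where a fold change over 2 was also required.

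The regions before the start sites of Cdk4 and Cdk6, which rose together with CpG, and of Cdkn1b, which fell, are shown so that their letters can be compared. Each is the 250 bases before the RefSeq start (GRCm38.p6, plus strand, 5′ to 3′), at chr10:127063285-127063534, chr5:3343643-3343892 and chr6:134920151-134920400. Capitals mark CACGTG, the E-box bound by MYC and related factors.
Cdk4: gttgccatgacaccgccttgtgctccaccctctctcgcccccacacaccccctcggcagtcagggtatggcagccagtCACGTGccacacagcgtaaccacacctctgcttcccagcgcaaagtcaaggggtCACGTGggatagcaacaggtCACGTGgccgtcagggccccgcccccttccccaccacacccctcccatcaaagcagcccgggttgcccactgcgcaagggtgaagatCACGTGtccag
Cdk6: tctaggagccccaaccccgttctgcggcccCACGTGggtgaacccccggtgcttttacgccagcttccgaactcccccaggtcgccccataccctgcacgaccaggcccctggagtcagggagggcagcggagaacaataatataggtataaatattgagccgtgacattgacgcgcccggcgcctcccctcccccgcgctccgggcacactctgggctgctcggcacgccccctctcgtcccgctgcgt
Cdkn1b: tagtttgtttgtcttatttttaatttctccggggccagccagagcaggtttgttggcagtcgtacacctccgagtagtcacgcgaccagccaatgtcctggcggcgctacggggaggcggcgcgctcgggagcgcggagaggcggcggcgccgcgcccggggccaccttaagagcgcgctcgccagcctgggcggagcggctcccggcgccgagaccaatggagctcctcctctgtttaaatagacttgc
The Cdk4 region held 4 matches, which began at -172, -118, -98 and -11 from the start (-1 is the last base before it). Of 32851 mouse promoters of the same kind (250 bases before and 50 after the start), 7.15% held at least 1 CACGTG and 0.0244% held 4 or more. Cdk6 held 1 match, at -220, and Cdkn1b held none.

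Promoters of 7 of the 10 genes were given (9 promoters in all), and they were searched on both strands for 5 more motifs. These were the E2F sites TTTCGCGC (in 0.323% of all promoters), TTTGGCGC (0.514%) and TTTCCCGC (1.07%), the interferon response core GAAANNGAA (8.56%) and the NF-κB site GGANTTTCC (1.25%). Cdk2 held 1 E2F site (TTTCCCGC, at -140), and the second promoter of Cdkn2c held 1 CACGTG at 34 bases after the start. No other match of these letters was found in the windows of Cdkn1b, Cdkn2c, Ccne1, Ccnd3, Cdk2, Cdk4 and Cdk6. A match is a string of letters and was not tested for binding.

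The ratio of Ccnd2 to Cdkn1b counts sets an activator beside an inhibitor within each sample, where depth cancels. It was 0.387, 0.577 and 0.733 in unstimulated cells, 0.464, 0.372 and 0.45 with IFNα, 8.67, 6.59 and 7.52 under CpG, and 25.7, 26.5 and 21.9 with CpG + IFNα. Both groups given CpG lay above the rest, and the combination lay above CpG. The ratio of Cdk4 to Cdkn1b was between 4.26 and 5.74 with CpG and between 6.31 and 7.76 with CpG + IFNα, without overlap. For Cdk6 the same ranges were 6.9 to 9 and 7.54 to 8.79, which overlapped. With IFNα alone both kinase ratios were below those of unstimulated cells in every sample (Cdk4 0.145 to 0.177 against 0.219 to 0.28, and Cdk6 0.121 to 0.161 against 0.223 to 0.32).

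**Figure D3:**
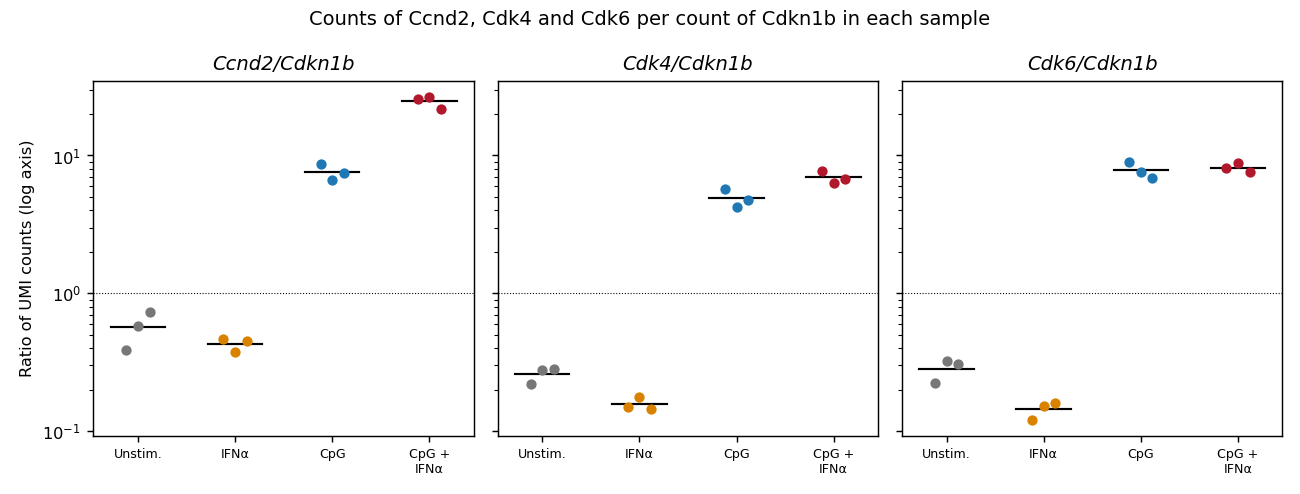
UMI counts of Ccnd2, Cdk4 and Cdk6 divided by those of Cdkn1b in the same sample (log axis); each point is a sample, each bar the mean of 3, and the dotted line marks equal counts. All ratios are under 1 without CpG and at least 4.26 with CpG, and Ccnd2/Cdkn1b is between 21.9 and 26.5 with CpG + IFNα.

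Cdkn2c encodes p18, an Ink4 inhibitor of CDK4 and CDK6 (chr4:109660876-109667189, minus strand), and did not pass the filter on low counts. It had 11, 6 and 5 counts in unstimulated cells, 4, 9 and 11 with IFNα, 3, 4 and 13 under CpG, and 1, 6 and 4 with CpG + IFNα. As CPM these were 10, 6.42 and 4.41, then 4.04, 5.47 and 8.39, then 1.84, 2.85 and 6.49, then 0.545, 2.07 and 2.06. The CpG + IFNα samples lay below all samples of the groups without CpG, and the CpG group overlapped every other group. In the fit without the filter Cdkn2c was lower with CpG + IFNα than in unstimulated cells, at -1.92 ± 0.56 on the log2 scale (edgeR adjusted p = 0.00211). Against CpG that fit gave -1.16 ± 0.57 (edgeR adjusted p = 0.359).

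Rb1 encodes RB, which binds E2F factors until it is phosphorylated, and lies at chr14:73183673-73325822 on the minus strand. It stood at 58.2, 47.1 and 34.4 CPM in unstimulated cells, 40.4, 31.6 and 42 with IFNα, 23.3, 23.5 and 23.5 under CpG, and 10.9, 16.9 and 15.9 with CpG + IFNα. The groups without CpG overlapped, CpG lay below them, and CpG + IFNα lay below CpG. Rb1 fell with CpG by 0.99 on the log2 scale (SE 0.21, edgeR adjusted p = 0.000103) and with CpG + IFNα by 1.64 (SE 0.21, adjusted p = 3.99e-08). The step from CpG to CpG + IFNα was -0.65 ± 0.22 (edgeR adjusted p = 0.054). That call was lost without any 1 of the CpG samples (adjusted p from 0.105 to 0.139) or CpG + IFNα replicate 1 (0.212), with DESeq2 (0.163), without the filter (0.131) and with thinned counts (0.278). IFNα alone gave -0.31 ± 0.20 (edgeR adjusted p = 0.319), and was called without unstimulated replicate 3 (-0.53, 0.0981). Rb1 overlaps Rcbtb2 and Lpar6 on the opposite strand, with 410 and 171 counts beside 512 for Rb1.

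Set against the IFNα group, CpG moved 6 of the 8 genes tested, with Ccnd2, Cdk4 and Cdk6 higher and Ccne1, Cdkn1b and Rb1 lower. In this comparison 37% of all genes were higher and 38.5% lower. The log2 differences ran from -2.59 for Cdkn1b to 3.13 for Cdk6. The combination against IFNα alone moved these 6 genes in these directions, from -3.07 for Cdkn1b to 2.77 for Ccnd2, where 36.1% and 39.8% of all genes were called. The combination against unstimulated cells moved 3 up (Ccnd2, Cdk4 and Cdk6) and 3 down (Ccnd3, Cdkn1b and Rb1), beside 37.6% and 38.8% of all genes. With a fold change over 2 required as well, the 3 comparisons kept 3 genes up, and 2 (Ccne1 and Cdkn1b), 3 (Ccne1, Cdkn1b and Rb1) and 2 (Cdkn1b and Rb1) down in turn, beside 19.4% and 24.7%, 18.7% and 25.5%, and 20.3% and 25.6% of all genes. Comparisons with the same reference group share its samples. The median log2 change of the 8 genes was -0.12 for CpG against unstimulated cells and -0.28 for CpG + IFNα against CpG, beside -0.03 and -0.04 over all genes tested.

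Other genes that control entry into S phase were read from a list of 31, of which 25 were tested. With CpG 15 of them rose and 6 fell, beside 36.5% and 38.4% of all genes tested, and the median log2 change was 1.04, beside -0.03 over all genes. Among those that rose were Tfdp1, the E2F partner (2.46 ± 0.18, edgeR adjusted p = 8.64e-14), and Cks1b, a subunit of CDK complexes (2.95 ± 0.28, 3.43e-11). Tfdp1 and Cks1b were named after their values were seen. With IFNα alone Cdkn1a (1.51) and Rbl1, an RB relative (1.81), rose, and E2f2 (-1.12), Mnat1 (-0.62) and Myc (-2.28) fell, on the log2 scale. These were 2 and 3 of the 25, beside 12.4% and 11.9% of all genes. The Mnat1 call was lost without any 1 of unstimulated replicates 1 and 3 and IFNα replicates 2 and 3 (adjusted p from 0.132 to 0.198), without the filter (0.101), with DESeq2 (0.116) and with thinned counts (0.288). With CpG Myc rose by 1.66 ± 0.14 (edgeR adjusted p = 2.94e-12). From CpG to CpG + IFNα 3 genes of the list rose, beside 6.54% of all genes, and the median was -0.13 (also without Cdkn2d, described next). Those that rose were Cdkn1a, E2f5, an E2F that represses (0.56 ± 0.17, edgeR adjusted p = 0.0229), and Fbxw7, which marks cyclin E for destruction (0.54 ± 0.14, 0.00732). The E2f5 call was lost without CpG replicate 3 or CpG + IFNα replicate 3, with DESeq2 (adjusted p = 0.12) and with thinned counts (0.126), and that of Fbxw7 without CpG + IFNα replicate 2. Cdkn2d, which had 3 counts or fewer per sample in both groups given CpG, is left out of the counts from CpG to CpG + IFNα, but not of those above.

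Cdkn1a encodes p21, a Cip/Kip inhibitor like p27 and a target of p53. Its level was 10, 2.14 and 13.2 CPM in unstimulated cells, 22.2, 28.6 and 23.7 with IFNα, 75.5, 135 and 95.4 under CpG, and 205, 294 and 268 with CpG + IFNα. No 2 groups overlapped. Between the groups given CpG, Cdkn1a was higher and Cdkn1b lower with IFNα added. Within each of these groups the samples did not go opposite ways, and replicate 1 was the lowest for both genes. Cdkn1a rose by 3.51 ± 0.29 on the log2 scale with CpG (edgeR adjusted p = 2.01e-12) and by a further 1.34 ± 0.16 when IFNα was added (adjusted p = 6.34e-08).

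Cdkn2d encodes p19, an Ink4 inhibitor. It stood at 51.9, 62 and 41.5 CPM in unstimulated cells and at 57.5, 50.5 and 51.9 with IFNα, and had 2, 3 and 2 counts with CpG and 0, 0 and 1 with CpG + IFNα. Against unstimulated cells it was at least 28.4-fold lower with CpG and at least 36.9-fold lower with CpG + IFNα, taking 3 counts per library as the floor. Both groups given CpG were at or under that floor, so no fold between them is given. The RNA of these inhibitors thus went in opposite directions with CpG, Cdkn1a up and Cdkn1b and Cdkn2d down.

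**Figure D4:**
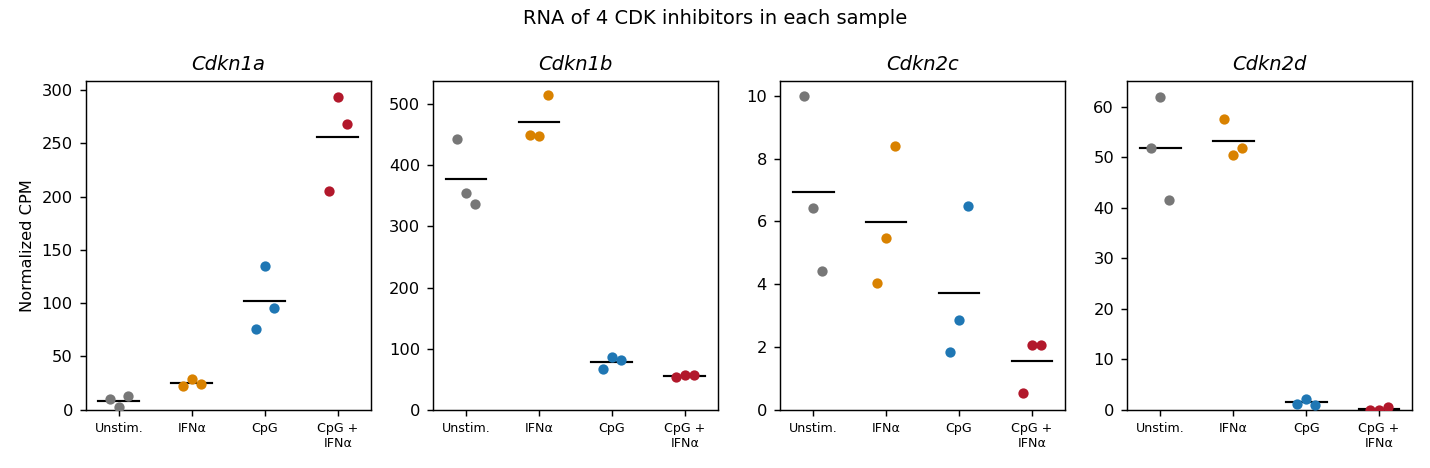
Normalized CPM (linear axis from 0, a separate scale for each gene) of the CDK inhibitors Cdkn1a, Cdkn1b, Cdkn2c and Cdkn2d; each point is a sample and each bar the mean of 3. Cdkn1a is between 205 and 294 with CpG + IFNα, where Cdkn1b is between 53.5 and 57 and Cdkn2d at 0.514 or under.

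Genes of DNA replication that E2F activates (19 in the list, 18 tested) stand downstream of the G1 kinases. With CpG 16 of them rose and 2, Cdt1 (-0.79) and Tk1 (-1.12), fell, beside 36.5% and 38.4% of all genes, with a median log2 change of 1.67. The strongest by p-value were Tyms, thymidylate synthase (4.40 ± 0.28, edgeR adjusted p = 2.57e-15), and the helicase subunits Mcm3 (2.35 ± 0.17, 6.6e-14) and Mcm2 (interval 1.69 to 2.31, 2.7e-13). With IFNα alone Mcm6 (0.55) and Rfc3 (1.22) rose and Pcna (-0.47) and Tk1 (-1.12) fell, beside 12.4% and 11.9% of all genes. Tk1 stood at 9.08, 26.1 and 5.34 CPM with IFNα, and its log2 change was -2.17 without IFNα replicate 2 and -0.72, not called, without IFNα replicate 3 (edgeR adjusted p = 0.136). From CpG to CpG + IFNα 4 fell, beside 8.83% of all genes, with a median of -0.28. These were Mcm7 (-0.46), Cdc6 (-0.83), Rrm1 (-0.40) and Rrm2 (-0.59), named after their values were seen. The count was 0 without CpG replicate 3, 1 without CpG + IFNα replicate 1 and 1 without CpG + IFNα replicate 2, 2 without unstimulated replicate 3 and 2 without CpG + IFNα replicate 3, 2 without the filter, 1 with thinned counts and 0 with DESeq2.

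Genes of mitosis, which come after S phase, were mostly too scarce, and 7 of 15 were tested. With CpG 5 rose, beside 36.5% of all genes, with a median of 1.70 on the log2 scale. They were Cdk1, the mitotic kinase (2.55 ± 0.51, edgeR adjusted p = 4.77e-05), Bub1b of the spindle checkpoint (2.19 ± 0.43, 4.06e-05), Top2a, a topoisomerase (1.70 ± 0.29, 5.92e-06), Mki67 (2.15) and Cdc20 (1.21). With 1 sample left out, Cdk1 ran from 1.97 to 3.26, the highest without unstimulated replicate 2, and Mki67 from 1.46, without CpG replicate 3, to 2.58. Cenpe rose with IFNα alone (0.98), a call that was lost without any 1 of unstimulated replicates 2 and 3 and IFNα replicates 1 and 2 (adjusted p from 0.112 to 0.173), with DESeq2 (0.133), with limma-voom (0.118) and with thinned counts (0.156). From CpG to CpG + IFNα Top2a fell by 0.70 and Mki67 by 1.46 on the log2 scale, beside 8.83% of all genes that were lower, and the median was -0.65. Without CpG replicate 3 neither was called, and Top2a was then at -0.24 and Mki67 at -0.76. In that replicate Top2a stood at 110 CPM, against 38.1 and 71.3 in the other two, and Mki67 at 35.4, against 6.75 and 20. The Top2a call was also lost without CpG + IFNα replicate 1 (adjusted p = 0.106) or 3 (0.173), with DESeq2 (0.438), with limma-voom (0.103) and with thinned counts (0.248).

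**Figure D5:**
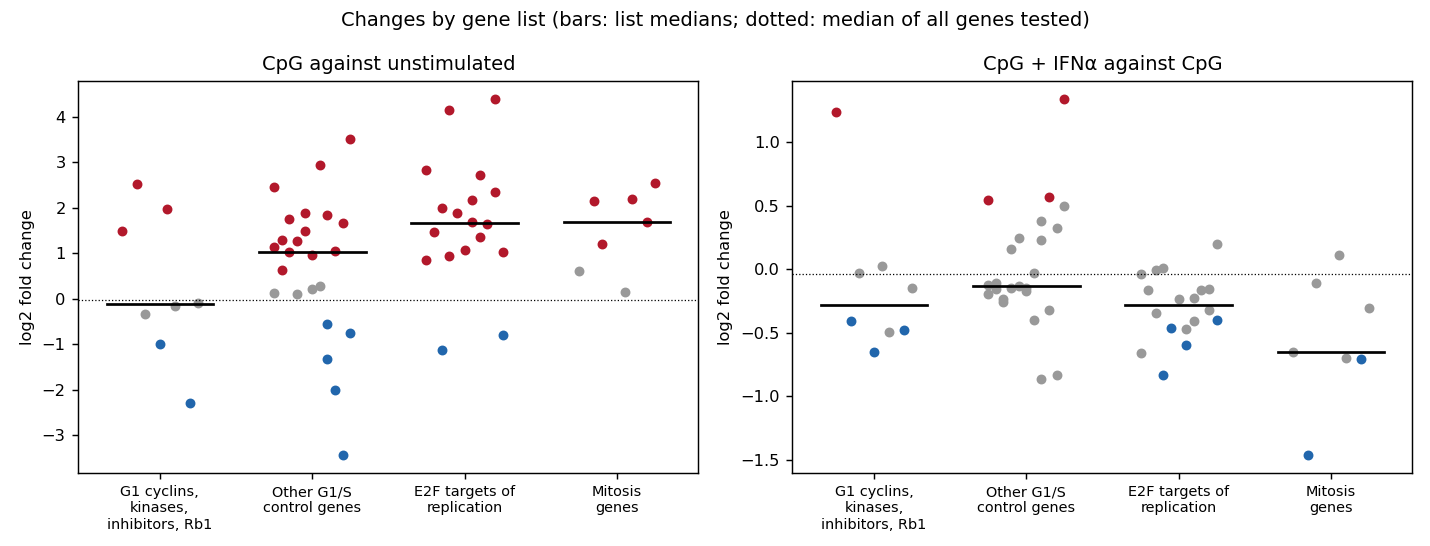
Log2 fold change (linear axes, with a separate scale in each panel) of each gene tested in 4 lists, for CpG against unstimulated cells and CpG + IFNα against CpG; each point is a gene, red rose, blue fell, grey was not called, bars are list medians and the dotted line is the median of all genes tested. Cdkn2d is not drawn, because both groups given CpG were at or under 3 counts per sample, and the replication genes have medians of 1.67 and -0.28.

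Genes whose pattern over the 12 samples was most like that of a member were found by Pearson's r of log2(CPM + 1) among 9430 other genes tested. Nearest to Ccnd2 were Fosl1 (r = 0.976), Polr1a (0.974) and Naa25 (0.973), and 36 genes had r over 0.95. For Cdk4 they were Timm9 (0.998), Mrto4 (0.997) and Fkbp1a (0.996), and 861 genes passed 0.95. For Cdkn1b they were Gucd1, Pip4k2a and Tsc22d4 (each 0.995), with 795 genes over 0.95, and for Rb1 Esyt2 (0.982), Bmf (0.977) and Mmd (0.973), with 27. More genes passed 0.95 for Cdk4 and Cdkn1b than for Ccnd2 and Rb1. The samples share their groups and their depth, and these values are a description.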

How the data were processed

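RNA was measured in 12 samples, 3 in each of 4 groups. The authors deposited raw UMI counts per gene. By the study's methods and processing notes, they extracted barcodes and UMIs with UMI-tools 1.1.2, trimmed reads with Trim Galore 0.6.7, mapped them to GRCm38 with HISAT2 2.2.1, assigned them to genes with featureCounts 2.0.1 and counted unique UMIs. Names and positions came from GENCODE M21, and promoters from RefSeq (GRCm38.p6).

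TMM factors were computed here with edgeR 4.0.16 (R 4.3.3). The filter was filterByExpr with its minimum count of 10, and glmQLFit and glmQLFTest were run on the 9431 genes left, with all 12 samples in 1 model (residual degrees of freedom: 8). Genes were called at a Benjamini-Hochberg adjusted p under 0.1 over all genes tested. CPM values are TMM-normalized. The fit was tested on simulated data. Alternatives were other scalings, no filter, DESeq2 1.42.0, limma 3.58.1 with voom, thinned counts, other thresholds, leaving out single samples, and a replicate block.

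The 10 genes, the lists and the motifs were chosen with earlier results of these data known. Genes named from the first list were those called from CpG to CpG + IFNα. From the other lists they were the 3 with the smallest p-value with CpG. Further names were chosen after their values were seen, mostly from counts of 5 or fewer. Tfdp1, Cks1b, the rise of Myc with CpG and the genes of the first list that fell with CpG come from larger counts. Total counts per sample, from 922450 to 2923865, limit the precision of genes with few counts. Protein levels and the flow cytometry were not analysed here, and 2 list genes are not reported here and were left out of their lists.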

Additional observations from a re-analysis of the deposited data

Results flagged for a closer look

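For 2 of the 8 genes tested, the effect of IFNα with CpG differed from its effect without CpG by edgeR's quasi-likelihood test: Ccnd2 by 1.28 on the log2 scale (adjusted p = 9.01e-06) and Cdkn1b by -0.79 (adjusted p = 0.00436). The same test, across 9431 genes, called 2 of the 24 G1/S control genes tested besides Cdkn2d and 4 of the 18 replication genes. Of all genes tested, 5.84% were higher and 7.58% lower. Cdkn2d is left out of these counts, because both groups with CpG had 3 counts or fewer per sample. Myc had a difference of 2.60 (adjusted p = 3.78e-10), falling with IFNα alone. Rbl1 had -1.92 (0.00088), Rfc3 -1.21 (0.00366), Mcm7 -0.86 (0.025), Mcm3 -0.77 (0.0384) and Mcm6 -0.72 (0.015). The Mcm3 call was lost without any 1 of unstimulated replicates 2 and 3, IFNα replicate 3 and CpG replicate 3 (adjusted p from 0.114 to 0.127), and with thinned counts neither Mcm3 (0.152) nor Mcm7 (0.13) was called.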

How the results depend on the processing

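Over 670 alternative fits, the 32 called changes of the 10 genes kept their direction in all, and 23 fits no longer passed the threshold. For IFNα against unstimulated cells, where 1 gene rose and 2 fell, 0 rose with library size scaling, DESeq2, an adjusted p under 0.05 or a fold change over 2, and 2 rose with thinned counts. In that comparison 1 fell without the filter, with thinned counts or at an adjusted p under 0.05, and 0 with a fold change over 2; leaving out 1 sample gave 0 to 1 that rose and 1 to 3 that fell. With a fold change over 2, 1 gene in place of 2 fell with CpG against unstimulated cells, 0 in place of 3 fell from CpG to CpG + IFNα, and 0 in place of 1 in the difference of effects. From CpG to CpG + IFNα 1 fell with thinned counts, and 1 to 4 with 1 sample left out. For CpG + IFNα against IFNα 4 to 5 fell with 1 sample left out, where Cdkn2c then passed the filter and fell in all, and Ccnd3 or Cdk2 was added where 5 fell. In the difference of effects 2 rose, Cdk4 being added, with library size scaling or without mitochondrial and rRNA genes.

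Changes of direction occurred among differences that were not called, with 1 sample left out unless named otherwise. For IFNα against unstimulated cells Ccnd2 ran from -0.16 to 0.09 (above 0 at 0.07 and 0.09) and Cdk2 from -0.21 to 0.20, with -0.01 under library size scaling. With CpG against unstimulated cells Ccnd3 ran from -0.35 to 0.08 and Cdk2 from -0.18 to 0.02, and Ccne1 was at 0.20 with thinned counts. From CpG to CpG + IFNα Ccne1 ran from -0.24 to 0.33 (above 0 also at 0.01 and 0.07), and was at 0.03 without the filter, 0.01 with DESeq2 and 0.00 without mitochondrial and rRNA genes. Cdk4 was there between -0.03 and 0.08, and Cdk2 at 0.03 with thinned counts. Ccnd3 ran from -0.53 to 0.03 with CpG + IFNα against IFNα and from -0.05 to 0.53 with CpG against IFNα (also -0.02), where Cdk2 ran from -0.27 to 0.13. In the difference of effects Ccnd3 ran from -0.41 to 0.17 (also 0.03, and 0.17 with thinned counts) and Cdk2 from -0.36 to 0.06. The cause of these changes was not tested.

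Replicate numbers were shared between groups. Of 18 pairs of samples with the same number, 5 had a correlation of deviations over 0.1 (median 0.03725). These 5 were all between stimulated groups, where same-number pairs ran from 0.00904 to 0.201 and different-number pairs from -0.2 to 0.0472. Same-number pairs with unstimulated samples ran from -0.0653 to 0.0473. A link by number between the stimulated groups is thus possible, and the main fit did not use it. With the replicate block, 1 gene rose and 3 fell from CpG to CpG + IFNα, as without it, and the block changed no other count of the 10 genes. Genes under about 20 counts per sample (Ccne1, Ccne2, Cdkn2c) are limited by depth.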
